A study of Mus musculus with 15 samples.

Results

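The 4 female and 4 male wild-type (WT) mice of a ventral striatum RNA sequencing study were compared here over their autosomal genes. The members are the 14699 autosomal genes, of 23762 autosomal symbols in the table, whose regularized log (rlog) value averaged at least 3 over all 15 mice. The rlog value is a normalized read count on a log2 scale that is drawn toward the mean of the gene where counts are low, so that differences of weakly expressed genes are understated. Genes of the X chromosome (549 tested) and the Y chromosome (4 tested) were set aside together with 9 tested symbols that matched no annotated gene, and 9063 autosomal symbols lay under the minimum. Just outside it were *Smpd5* (mean rlog 2.99959) and *Cks2* (2.99999), and just inside *Eppk1* (3.00682) and *Cdc42ep5* (3.00858).

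All mice were C57BL/6J adults of 2 to 3 months that had gone through a battery of behavioral tests before dissection, and the ventral striatum of each mouse gave 1 library. The WT mice were of the same strain as the *Fmr1* knockout (KO) line and were not its littermates. A comparison of the sexes that shares no mouse with them came from 3 *Fmr1* KO males, hemizygous for the deleted gene, and 4 *Fmr1* KO females, homozygous for it, since the line is kept by mating such animals and holds no WT siblings. No estrous stage, litter, extraction day or sequencing lane is named for any mouse, so a handling difference between males and females cannot be told apart from sex, and p-values measure the spread between these mice.

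Autosomal genes are present in the same copy number in both sexes. A sex difference in their RNA can come about through gonadal hormones acting on their receptors, through regulators encoded on the X or Y chromosome, or through differences in the cells that make up the tissue. The ventral striatum, which holds the nucleus accumbens, consists mostly of GABAergic projection neurons that receive dopamine and glutamate, and it serves motivation and reward. The question put to the data was which autosomal functions differ between the sexes there, and whether females and males of the *Fmr1* KO line differ in the same direction.

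The labels were checked against marker genes. *Xist*, the noncoding RNA that coats the inactive X chromosome, was at 8.51 to 8.56 in the WT males and 13.6 to 14.4 in the WT females, and the Y-linked *Ddx3y* was at 10.1 to 10.5 and 6.71 to 6.90. The projection neuron marker *Ppp1r1b* (DARPP-32) was at 13.5 to 14.2 over the 8 WT mice. *Fmr1* was at 10.6 to 10.9 in the WT mice and 9.82 to 10.1 in the *Fmr1* KO mice. A score of 24 projection neuron genes, the mean of their values after the mean of each gene over the 15 mice was subtracted, was 0.246, 0.275, -0.00994 and 0.34 in the WT males and -0.247, 0.395, 0.396 and 0.327 in the WT females. WT male 3 and WT female 1 were thus low among the WT mice. The same 2 mice stood apart on the first principal component, computed from the autosomal genes that varied most over the WT mice. This component held 43.8% of the variance of those genes and did not separate the sexes (exact permutation test, p = 0.743). Of the 4 components examined, the sexes separated on the last, with 6.86% of the variance (exact permutation test, p = 0.0286, the smallest that 4 against 4 mice can give, and not adjusted for the 4 components).

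Of the 14699 autosomal genes, 398 (2.71%) differed between WT females and WT males at an adjusted p under 0.05 (limma, Benjamini-Hochberg over all 15261 genes tested), and 165 of them (1.12%) were higher and 233 (1.59%) lower in females. The 12 lowest included the respiratory chain genes *Ndufc1*, *Ndufb6*, *Cox5a* and *Sdhaf4*, and the 12 highest the nuclear regulators *Hipk2*, *Crebbp*, *Gps2* and *Atn1*. The differences were small, with absolute log2 values from 0.102 to 0.541 and a median of 0.232. In 393 of the 398 the 4 females and the 4 males did not overlap, which was so for 1440 of all autosomal genes (9.8%), higher in females in 4.31% and lower in 5.48%. The median difference over all autosomal genes was 0.00423, and 48.1% of the differences were below 0. At an unadjusted p under 0.05, 1028 genes (6.99%) were higher and 1148 (7.81%) lower. The spread behind this count was estimated over all 15 mice. With the 8 WT mice alone 30 genes passed, all of them among the 398, and between 120 and 443 passed when 1 mouse was left out, the lowest without WT female 4.

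*Rpl22l1*, a paralog of the ribosomal protein gene *Rpl22*, had the largest difference among the genes that passed. Its rlog values were 9.10, 9.01, 9.18 and 8.98 in the WT males and 8.50, 8.58, 8.61 and 8.42 in the WT females. Every female was below every male, and on a linear scale the female level was 68.7% of the male level, a log2 difference of -0.54 ± 0.0713 (SE, adjusted p = 0.00217). The gene lies on chromosome 3, 28805436 to 28807424 (GRCm38), and a predicted gene, *Gm33051*, overlaps its exons on the opposite strand. Since it is not stated whether reads were counted by strand, their reads cannot be told apart.

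*Hnrnpa0*, which encodes an RNA-binding protein of the heterogeneous nuclear ribonucleoprotein family, had the smallest p. It stood at 10.77, 10.73, 10.71 and 10.62 in the WT males against 10.20, 10.26, 10.27 and 10.23 in the WT females, with no overlap between the sexes. The log2 difference was -0.46 ± 0.041 (SE, adjusted p = 3.69e-05), or 72.5% of the male level. This gene has a single annotated exon on chromosome 13, 58125879 to 58128556. *Snrpe*, a core protein of the spliceosomal ribonucleoproteins, gave 8.14, 8.20, 8.25 and 8.10 in males and 7.79, 7.73, 7.88 and 7.69 in females, and its difference was -0.40 ± 0.0564 (SE, adjusted p = 0.0034).

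**Figure D1:**
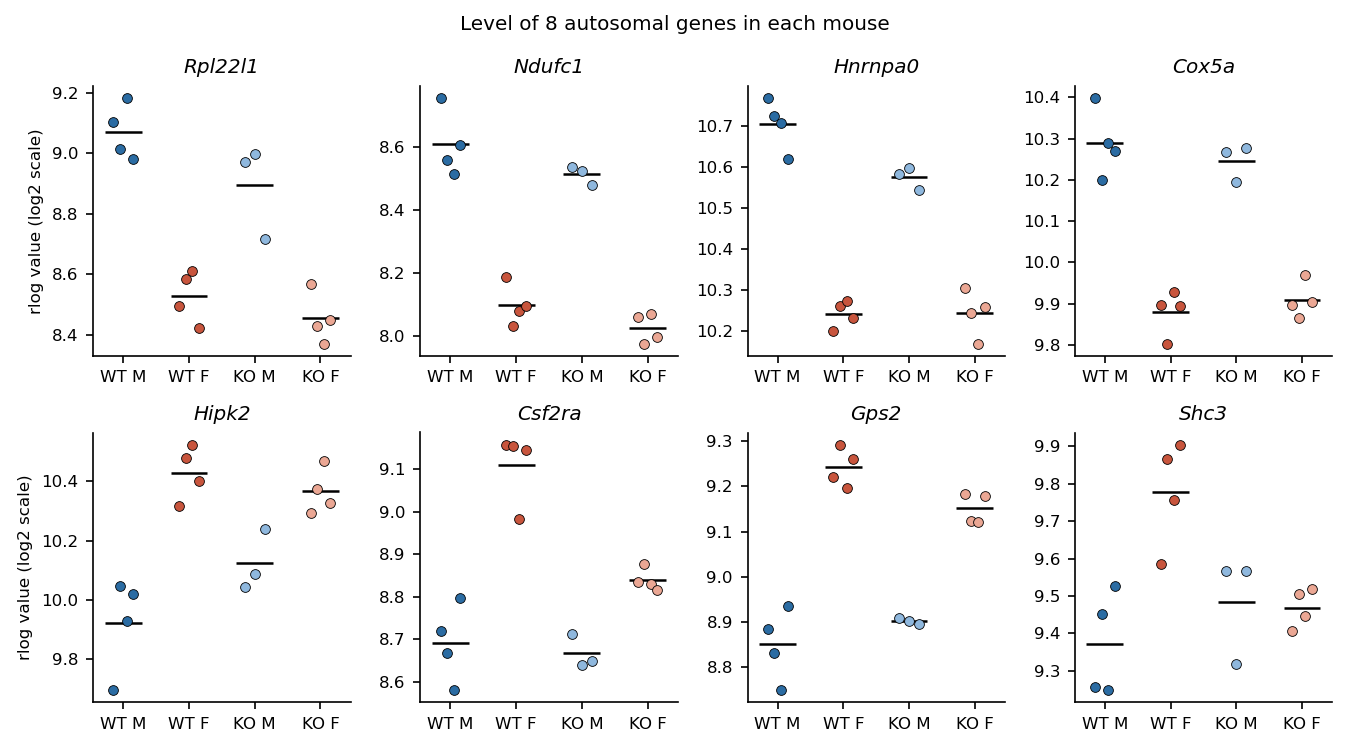
Each panel plots the rlog value (log2 scale, vertical axis) of 1 autosomal gene in each mouse (points) by group, with a line at the group mean (WT M and WT F, n = 4 each, KO M, n = 3, KO F, n = 4). The WT sexes do not overlap in any of the 8 panels, and in *Shc3* the *Fmr1* KO sexes do.

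Several of the lowest genes belong to the respiratory chain, the set of mitochondrial complexes that pass electrons from NADH and succinate to oxygen and drive the synthesis of ATP. *Ndufc1*, an accessory subunit of complex I on chromosome 3, 51404677 to 51408988, was at 8.76, 8.56, 8.52 and 8.61 in the WT males and at 8.19, 8.03, 8.08 and 8.09 in the WT females. The females reached 70.1% of the male level, a log2 difference of -0.51 ± 0.0554 (SE, adjusted p = 0.000419). *Cox5a*, a subunit of complex IV on chromosome 9, 57521274 to 57532426, gave 10.40, 10.20, 10.29 and 10.27 in males and 9.90, 9.80, 9.93 and 9.89 in females, a difference of -0.41 ± 0.0465 (SE, adjusted p = 0.000567). *Sdhaf4*, an assembly factor of complex II, was nearly constant within the males at 7.83, 7.83, 7.82 and 7.83, and the females were lower at 7.41, 7.39, 7.55 and 7.44, a difference of -0.38 ± 0.0526 (SE, adjusted p = 0.00303). The complex I subunit *Ndufb6* stood at 9.07, 8.68, 8.69 and 8.83 in males and 8.62, 8.36, 8.29 and 8.33 in females. Its difference of -0.42 ± 0.106 (SE, adjusted p = 0.0483) passed in 3 of the 15 fits that left out 1 mouse, and WT male 1 was the highest male. Exons of *Smim27* overlap *Ndufb6* on the opposite strand, as do those of the predicted genes *Gm26631* and *Gm26524* with *Cox5a* and *Sdhaf4*, so the values of these 3 genes are uncertain.

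Other mitochondrial genes were among the 12 lowest. *Chchd2*, a protein of the intermembrane space, was at 9.93, 9.69, 9.68 and 9.75 in the WT males and 9.43, 9.40, 9.47 and 9.37 in the WT females. The sexes did not overlap, and the difference was -0.35 ± 0.0518 (SE, adjusted p = 0.00446). *Coq10b*, which binds the electron carrier coenzyme Q, differed by -0.35 ± 0.0639 (SE, adjusted p = 0.0108) and *Atp6v1h*, a regulatory subunit of the vacuolar proton pump that acidifies synaptic vesicles and lysosomes, by -0.37 ± 0.0404 (SE, adjusted p = 0.000456). The list of 12 closes with *Pigp*, an enzyme subunit of membrane anchor synthesis, at -0.36 ± 0.0658 (SE, adjusted p = 0.0118), and *Gt(ROSA)26Sor*, the noncoding RNA of the locus widely used for transgene insertion, at -0.37 ± 0.0637 (SE, adjusted p = 0.00807). Exons of *Ttc3*, *Thumpd3*, *Rgs20* and *E330011M16Rik* overlap *Pigp*, *Gt(ROSA)26Sor*, *Atp6v1h* and *Coq10b* on the opposite strand, so the values of these 4 genes are uncertain. Apart from *Ndufb6*, each of the 12 passed in all 15 fits with 1 mouse left out.

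Read over a whole list of nuclear-encoded oxidative phosphorylation genes, 7 of 44 autosomal members were lower in WT females and 0 higher, where 1.59% of all autosomal genes were lower. The 7 were *Cox5a*, *Atp5e* (-0.34 ± 0.0838 SE, adjusted p = 0.0465), *Atp5g3* (-0.33 ± 0.0676 SE, adjusted p = 0.0192), *Ndufb5* (-0.21 ± 0.0463 SE, adjusted p = 0.0264), *Ndufs4* (-0.21 ± 0.0485 SE, adjusted p = 0.0358), *Sdhd* (-0.20 ± 0.0417 SE, adjusted p = 0.02) and *Ndufa4* (-0.20 ± 0.0439 SE, adjusted p = 0.0239). They encode subunits of complexes I, II and IV and of the ATP synthase. Another 13 members were lower at an unadjusted p under 0.05 alone, which makes 20 of 44 beside 7.81% of all autosomal genes, and 1 member was higher. The median over the list was -0.10 on the log2 scale (0.00423 over all autosomal genes), and 37 of the 44 differences were below 0.

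*Atp5g3*, which encodes a copy of the membrane ring subunit of the ATP synthase, was at 11.22, 10.88, 10.94 and 10.92 in the WT males and at 10.74, 10.64, 10.63 and 10.60 in the WT females. Each male was above each female, and WT male 1 was higher than the other males. The same mouse was high over the list. The mean deviation of the 44 genes was 0.24, 0.0163, -0.00169 and 0.0505 in the WT males and 0.0115, -0.067, -0.0158 and -0.0625 in the WT females, so that the sexes overlapped and WT male 1 stood far above the others. Without it 5 members were lower, the list median was -0.0596 and 29 members were below 0. Leaving out WT female 2 or WT female 4 reduced the members called to 1, and with the WT mice alone 1 passed. The share of all autosomal genes called lower fell as well, to 0.49%, 0.463% and 0.116% in these fits. In the *Fmr1* KO mice, a comparison without WT male 1, the same score was 0.064, 0.0141 and 0.0619 in males and -0.025, -0.097, -0.0694 and -0.12 in females, with no overlap. The median difference of the 44 genes there was -0.10, with 37 below 0 beside 49.5% of all autosomal genes.

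**Figure D2:**
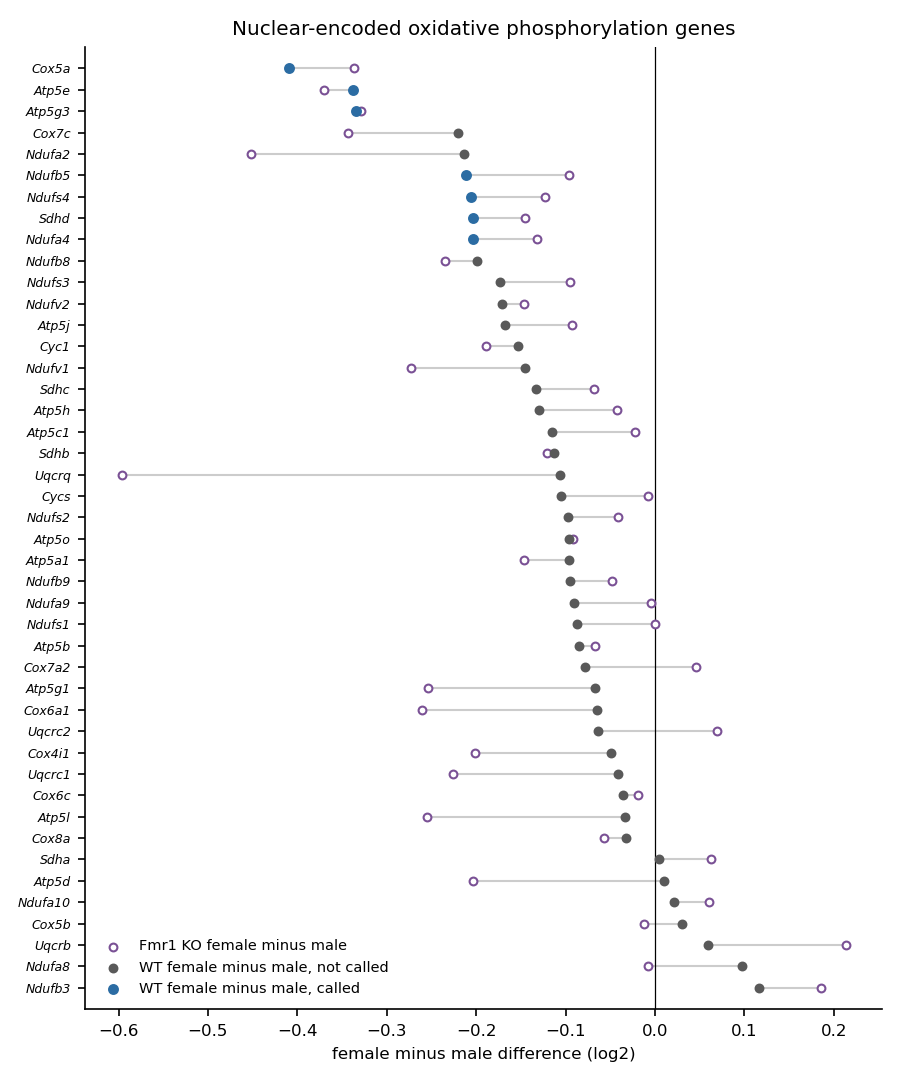
Female minus male difference (log2, horizontal axis) of the 44 oxidative phosphorylation genes in WT mice (filled points, blue where the adjusted p was under 0.05) and in *Fmr1* KO mice (open points), each gene on its own line and ordered by the WT value. In both genotypes 37 of the 44 points lie below 0.

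By symbol, a grouping chosen after the values were seen, the lower genes were spread over the complexes, where 1.59% of all autosomal genes were lower and 1.12% higher. Among 34 Nduf symbols, most of them subunits of complex I, 5 were lower (*Ndufc1*, *Ndufb6*, *Ndufb5*, *Ndufs4* and *Ndufa4*) and 1 higher, *Ndufa4l2*, a low-abundance paralog of *Ndufa4* induced by hypoxia, at 0.26 ± 0.0597 (SE, adjusted p = 0.0339). *Ndufa4* itself is now placed in complex IV. Of the other complexes, 1 of 4 genes of complex II (*Sdhd*), 1 of 8 of complex III (*Uqcrfs1*, the Rieske iron-sulfur protein, -0.28 ± 0.0478 SE, adjusted p = 0.00833), 1 of 14 of complex IV (*Cox5a*) and 3 of 17 of the ATP synthase (*Atp5e*, *Atp5g3* and *Atp5mpl*) were lower. Of 29 assembly factors 5 were lower and 0 higher (*Sdhaf4*, *Coa6*, *Cox11*, *Ndufaf4* and *Ndufaf5*). With 1 WT mouse left out, 1 to 4 Nduf symbols, 1 to 4 assembly factors and 0 to 2 ATP synthase genes were lower. Without WT female 2 or WT female 4, and with the WT mice alone, the lower genes went from 5 to 1 for the Nduf symbols, from 5 to 1 for the assembly factors and from 3 to 0 for the ATP synthase. Over all autosomal genes, the share called lower went from 1.59% to 0.49%, 0.463% and 0.116% in these fits. The phosphate carrier of the inner membrane, *Slc25a3*, was at 12.29, 12.18, 12.18 and 12.13 in the WT males and 11.89, 11.93, 11.97 and 11.88 in the WT females, with a difference of -0.28 ± 0.0404 (SE, adjusted p = 0.0041). The mitochondrial peroxidase *Prdx3* (-0.24 ± 0.0412 SE, adjusted p = 0.00807), the outer membrane channel *Vdac1* (-0.20 ± 0.0487 SE, adjusted p = 0.045), the pyruvate carrier subunit *Mpc2* (-0.25 ± 0.059 SE, adjusted p = 0.0366) and the pyruvate dehydrogenase subunit *Pdhb* (-0.17 ± 0.0353 SE, adjusted p = 0.0219) were lower too. These genes and *Slc25a3* were picked after their values were seen. Of 38 mitochondrial carriers with Slc25 symbols, 3 were lower and 1 higher. Proteins of the mitochondrial ribosome went both ways, with 3 higher and 3 lower of 78.

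Beside 1.59% of all autosomal genes, cytosolic ribosomal protein genes gave 1 member lower of 51, *Rpl15* (-0.20 ± 0.0424 SE, adjusted p = 0.0211), and 0 higher. At an unadjusted p under 0.05, 16 were lower and 1 higher (7.81% and 6.99% of all autosomal genes), and the list median was -0.0781. This median depended on WT male 1, whose score over the list was 0.228 beside -0.029 to 0.0326 in the other WT males and -0.0359 to 0.0159 in the WT females. Without that mouse the median was -0.00737 and the list held 9 lower and 6 higher members at an unadjusted p under 0.05. In the *Fmr1* KO mice, a comparison without this mouse, the median was -0.107 and 38 of 51 differences were below 0. At an unadjusted p under 0.05, 17 were lower and 3 higher there, beside 8.58% and 8.06% of all autosomal genes. The KO scores overlapped, at 0.0205 to 0.0657 in males and -0.14 to 0.0461 in females. *Rps27a*, a fusion of ubiquitin with a ribosomal protein, was lower in WT females at -0.20 ± 0.0484 (SE, adjusted p = 0.0381), and *Eif1*, the factor that guides start codon choice, at -0.32 ± 0.0484 (SE, adjusted p = 0.00446). Both were picked after their values were seen. Of 49 genes with Eif symbols, 2 were lower and 0 higher.

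**Figure D3:**
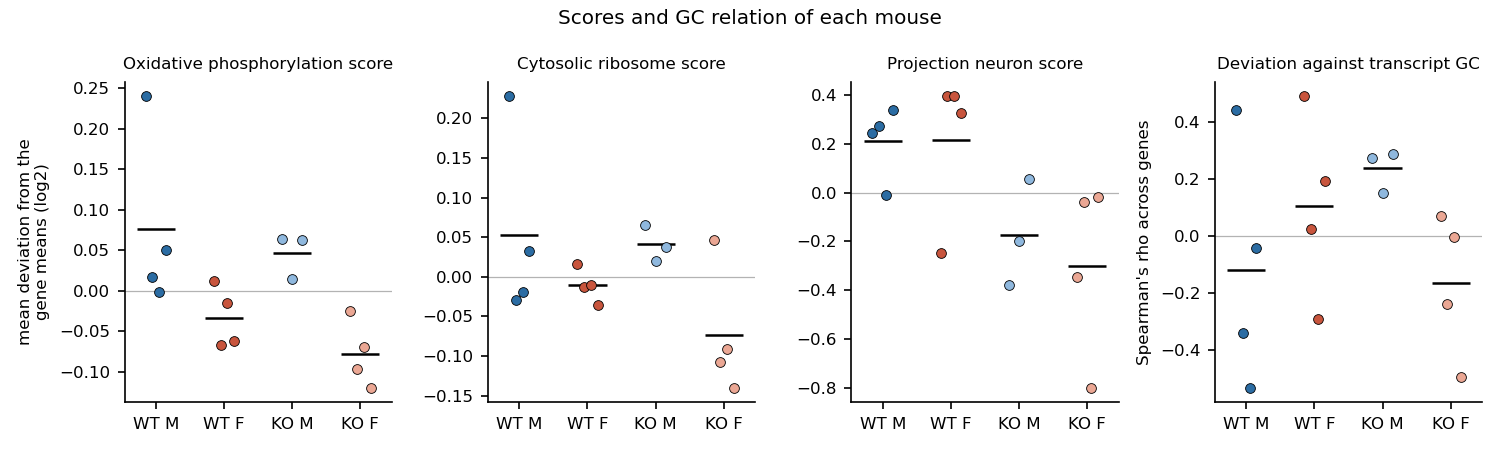
Mean deviation of 3 gene lists from their gene means (log2, first 3 panels) and the Spearman correlation, across autosomal genes, of each mouse's deviation with transcript GC content (last panel), with 1 point per mouse and a line at the group mean. WT male 1 stands above every other mouse in the first 2 panels, and the WT sexes overlap in all 4.

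Further genes of the 233 are given as examples picked after their values were seen. *Cops5*, the catalytic subunit of the COP9 signalosome, which removes the ubiquitin-like modifier NEDD8, differed by -0.29 ± 0.0485 (SE, adjusted p = 0.00664), and its partner *Cops9* by -0.33 ± 0.0594 (SE, adjusted p = 0.0104). The proteasome subunit *Psmb4* was at 10.44, 10.34, 10.41 and 10.23 in the WT males and 10.11, 10.10, 10.07 and 9.998 in the WT females, without overlap. *Gabarapl2*, an autophagosome protein of the ATG8 family, differed by -0.33 ± 0.0607 (SE, adjusted p = 0.011), the peroxidase *Prdx1* by -0.29 ± 0.0471 (SE, adjusted p = 0.00633), the GTPase *Rheb*, which activates mTORC1, by -0.25 ± 0.0591 (SE, adjusted p = 0.0383) and *Vhl*, the ubiquitin ligase subunit that marks hypoxia-inducible factors, by -0.29 ± 0.0618 (SE, adjusted p = 0.0231). Of 38 proteasome genes tested, 3 were lower and 1 higher, beside 1.59% and 1.12% of all autosomal genes.

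Among the genes higher in WT females, *Hipk2*, a nuclear kinase that phosphorylates transcription factors, was at 9.69, 10.05, 9.93 and 10.02 in the WT males and 10.32, 10.48, 10.52 and 10.40 in the WT females. WT male 1 was the lowest, and no male reached a female. The female level was 142% of the male level, a log2 difference of 0.51 ± 0.0759 (SE, adjusted p = 0.00446). *Crebbp*, the histone acetyltransferase that coactivates CREB, gave 10.11, 10.28, 10.31 and 10.45 in males and 10.58, 10.70, 10.71 and 10.76 in females, a difference of 0.40 ± 0.064 (SE, adjusted p = 0.00557). *Gps2*, a subunit of the NCoR corepressor complex with histone deacetylase 3, was at 8.88, 8.83, 8.75 and 8.94 in males and 9.22, 9.29, 9.20 and 9.26 in females, and differed by 0.39 ± 0.0444 (SE, adjusted p = 0.000567).

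*Cnot3*, a subunit of the CCR4-NOT complex that shortens poly(A) tails, was at 9.66, 9.61, 9.66 and 9.70 in the WT males and 10.17, 10.05, 9.92 and 10.06 in the WT females, with the smallest female value above the largest male value (0.39 ± 0.052 SE, adjusted p = 0.00217). *Cenpx*, a histone-fold protein of the centromere and of DNA repair, differed by 0.39 ± 0.052 (SE, adjusted p = 0.00217), *Nabp2*, which binds single-stranded DNA, by 0.37 ± 0.0601 (SE, adjusted p = 0.00658), and *Atn1*, the corepressor atrophin-1, by 0.41 ± 0.0929 (SE, adjusted p = 0.0306). *Ciz1*, a zinc finger protein that anchors *Xist* RNA on the inactive X chromosome, was at 9.89, 9.75, 9.69 and 9.89 in males and 10.33, 10.08, 9.98 and 10.27 in females (0.36 ± 0.0704 SE, adjusted p = 0.0165). It was the one member higher among 24 autosomal genes listed as *Xist* partners or X inactivation factors, and 0 were lower. The shares over all autosomal genes were 1.12% higher and 1.59% lower. Exons of *Leng1*, *Ankrd52* and *1110008P14Rik* overlap *Cnot3*, *Nabp2* and *Ciz1* on the opposite strand, so their values are uncertain.

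Membrane and signaling genes completed the 12 highest. *Prrt1*, also known as SynDIG4, an auxiliary protein of AMPA receptors, had the largest difference. It was at 8.06, 7.59, 7.44 and 7.82 in the WT males and 8.33, 8.26, 8.12 and 8.30 in the WT females, a difference of 0.52 ± 0.108 (SE, adjusted p = 0.0206), with a wide spread among the males. *Csf2ra*, the alpha chain of the GM-CSF receptor, was at 8.72, 8.67, 8.58 and 8.80 in males and 9.16, 9.16, 8.98 and 9.15 in females (0.42 ± 0.0536 SE, adjusted p = 0.00177). The sodium pump regulator *Fxyd5* differed by 0.41 ± 0.0857 (SE, adjusted p = 0.021) and *Shc3*, an adaptor of neurotrophin receptors, by 0.41 ± 0.0829 (SE, adjusted p = 0.02). *Prrt1* and *Atn1* each passed in 10, *Fxyd5* in 11, and *Shc3* and *Ciz1* each in 12 of the 15 fits that left out 1 mouse, and the other 7 of the 12 passed in all of them.

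On the list of chromatin and DNA methylation genes, 2 of 34 were higher, *Crebbp* and the histone methyltransferase *Setd1a* (0.25 ± 0.0634 SE, adjusted p = 0.048), and 0 lower, beside 1.12% of all autosomal genes. At an unadjusted p under 0.05 the list held 8 higher and 1 lower, beside 6.99% and 7.81% of all autosomal genes. Its median was 0.0811 in WT and 0.0168 in *Fmr1* KO mice. *Brd7*, a subunit of a chromatin remodeling complex, was at 10.47, 10.55, 10.56 and 10.48 in the WT males and 10.69, 10.75, 10.81 and 10.74 in the WT females (0.23 ± 0.038 SE, adjusted p = 0.00621) and *Brd2*, which also binds acetylated histones, differed by 0.16 ± 0.0401 (SE, adjusted p = 0.0459). *Polr2a*, the largest subunit of RNA polymerase II, was higher by 0.26 ± 0.0514 (SE, adjusted p = 0.0168) and the elongation factor *Supt5* by 0.19 ± 0.0354 (SE, adjusted p = 0.011). These 4 genes were picked after their values were seen.

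RNA processing genes appeared in both directions. Of 19 Hnrnp genes 4 were higher (*Hnrnpul1*, *Hnrnpm*, *Hnrnph3* and *Hnrnph1*) and 2 lower (*Hnrnpa0* and *Hnrnpa3*), beside 1.12% and 1.59% of all autosomal genes. The 4 became 1 without WT male 2, WT female 2 or WT female 4, and 0 with the WT mice alone. Over all autosomal genes, the share called higher was 0.388%, 0.354%, 0.354% and 0.0884% in these fits. *Hnrnpul1* was at 11.26, 11.28, 11.25 and 11.25 in the WT males and at 11.50, 11.52, 11.54 and 11.45 in the WT females, a narrow spread with no overlap (0.24 ± 0.0321 SE, adjusted p = 0.00217). *Hnrnpa3* gave 10.18, 10.28, 10.41 and 10.29 in males and 9.95, 10.001, 10.06 and 10.001 in females (-0.29 ± 0.0455 SE, adjusted p = 0.00554). The splicing coactivator *Srrm1* was higher by 0.30 ± 0.0517 (SE, adjusted p = 0.00862) and the scaffold attachment factors *Safb2* and *Safb* by 0.30 ± 0.0564 (SE, adjusted p = 0.0119) and 0.23 ± 0.04 (SE, adjusted p = 0.0089). *Mettl3*, the enzyme that methylates adenosines in mRNA, differed by 0.21 ± 0.0467 (SE, adjusted p = 0.0264), and *Drosha*, which cuts microRNA precursors, by 0.17 ± 0.0358 (SE, adjusted p = 0.0229). The splicing factor *Srsf3* was lower at -0.22 ± 0.0385 (SE, adjusted p = 0.00807). Among the nuclear transport genes, *Ranbp1* was higher (0.31 ± 0.0462 SE, adjusted p = 0.00439) and its partner GTPase *Ran* lower (-0.28 ± 0.0627 SE, adjusted p = 0.0267). All of these except *Hnrnpa0* were picked from the 398 after their values were seen.

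Lists of genes by which striatal neurons signal were examined next. On the lists of dopamine (14 tested), opioid and cannabinoid (15), neuropeptide (35), glutamate (31), serotonin and noradrenaline (19) and acetylcholine genes (16), of voltage-gated channels (34) and of synaptic scaffolds (25), 0 members passed at an adjusted p under 0.05, beside 2.71% of all autosomal genes. At an unadjusted p under 0.05 these lists held 1 higher member, the scaffold *Shank2*, and 1 lower member, the lipid hydrolase *Abhd12*. Of all autosomal genes, 6.99% were higher and 7.81% lower at that p. The dopamine receptor gene *Drd1* differed by -0.10 ± 0.228 (SE) and *Drd2* by 0.21 ± 0.211, and the opioid precursors *Penk* and *Pdyn* by 0.09 ± 0.133 and -0.18 ± 0.162, and none of the 4 had an unadjusted p under 0.05. The glycine receptor subunit *Glrb*, on none of the lists, was lower at -0.17 ± 0.041 (SE, adjusted p = 0.042) and was picked after its value was seen.

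Hormone lists held 0 members past the threshold, beside 2.71% of all autosomal genes. This was so for 23 steroid hormone receptors and coregulators, 18 genes of steroid synthesis and metabolism, and 21 genes known to respond to estrogen, with list medians of -0.00825, -0.0363 and -0.0142, each of which took the other sign in a fit with 1 WT mouse left out. At an unadjusted p under 0.05 the 3 lists held 2 higher and 2 lower members, beside 6.99% and 7.81% of all autosomal genes. The estrogen receptor gene *Esr1* differed by -0.00372 ± 0.353 (SE), *Esr2* by -0.0337 ± 0.0958 and the progesterone receptor gene *Pgr* by -0.12 ± 0.0966. The lists of immediate early genes (22 tested), clock genes (20), glucocorticoid and stress genes (22), interferon and antigen presentation genes (29), extracellular matrix genes (28), autosomal paralogs of X-Y pair genes (16) and FMRP-bound large brain mRNAs (32) also held 0, beside the same 2.71%. Among 32 imprinted genes the maternally expressed noncoding RNA *Mirg* was higher (0.31 ± 0.0591 SE, adjusted p = 0.0143), and among 23 heat shock and chaperone genes the endoplasmic reticulum chaperone *Calr* (0.23 ± 0.0545 SE, adjusted p = 0.0373). Beside these single calls, 1.12% of all autosomal genes were higher.

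**Figure D4:**
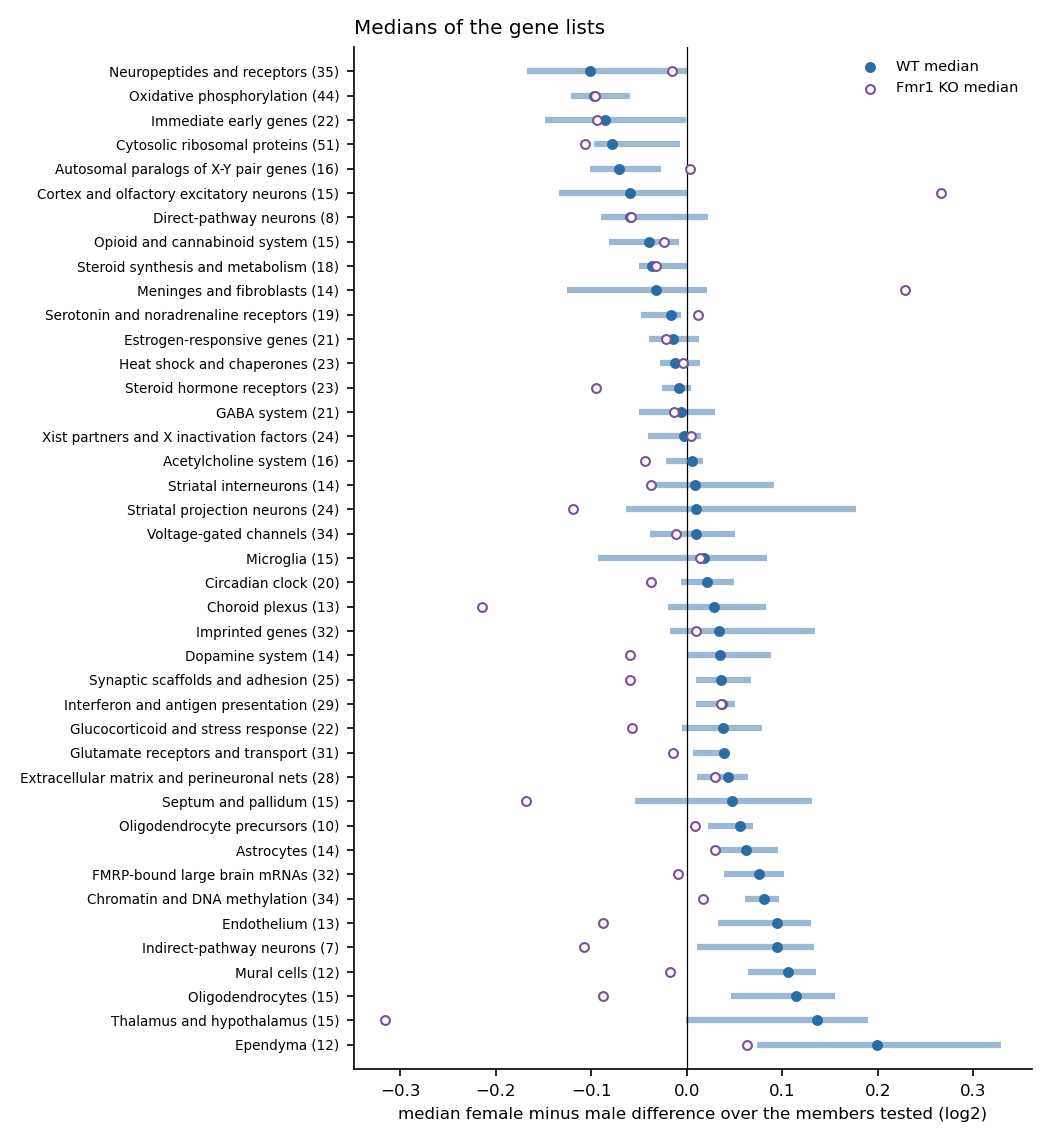
Median female minus male difference (log2, horizontal axis) over the tested members of each gene list (number in parentheses) in WT mice (filled points) and *Fmr1* KO mice (open points), with a bar for the range of the WT median when each of the 8 WT mice is left out in turn. Oxidative phosphorylation lies at -0.10 in both genotypes with its WT bar below 0. Cytosolic ribosomal proteins, immediate early genes and the opioid and cannabinoid list also lie below 0 in both genotypes with WT bars below 0. Several cell type lists lie on opposite sides of 0.

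Cell type lists were read beside these results. On 16 lists of neurons, glia, vessels, meninges, ventricle lining and neighboring regions, 1 member passed, *Sall1* on the microglia list, a transcription factor of these cells that neural progenitors and some neurons also express, at 0.21 ± 0.0477 (SE, adjusted p = 0.0288). A difference passed in 2.71% of all autosomal genes. The other 14 microglia genes did not pass, and the microglia median of 0.0181 became -0.0925 without WT male 3. All members of the blood and pituitary lists lay under the minimum or on the X chromosome. The ependyma median was 0.199 and the thalamus and hypothalamus median 0.136 in the WT mice, without a gene that passed. The latter reached -0.000711 with 1 WT mouse left out and was -0.316 in the *Fmr1* KO mice. In bulk tissue, fewer cells of a type and less RNA per cell cannot be told apart. When the projection neuron score was added to the model, 637 genes passed, and 675 passed when a score of thalamic, hypothalamic, septal and pallidal genes was added instead.

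The direction of the WT difference recurred in the *Fmr1* KO mice. Of the 398 genes, 381 (95.7%) had the same sign in *Fmr1* KO females minus *Fmr1* KO males, beside 61.9% of all autosomal genes. At an unadjusted p under 0.05 in the KO comparison, 259 of the 398 had the same sign and 0 the opposite sign. Over all 14699 autosomal genes these counts were 1941 and 505. The *Fmr1* KO sexes did not overlap, in the direction of the WT difference, for 277 of the 398 and for 2015 of all 14699 autosomal genes. In either direction, the KO sexes did not overlap for 17.8% of all autosomal genes. The KO comparison by itself called 108 genes (0.735%), 82 higher (0.558%) and 26 lower (0.177%) in females, and 61 of these were among the 398, all with the same sign. These 61 are 15.3% of the WT calls and 56.5% of the KO calls. The 2 comparisons share no mouse but share the estimate of the spread. With the spread of each genotype taken from its own mice alone, 30 genes passed in WT, 100% of them with the same sign in KO, and 3 passed in KO.

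**Figure D5:**
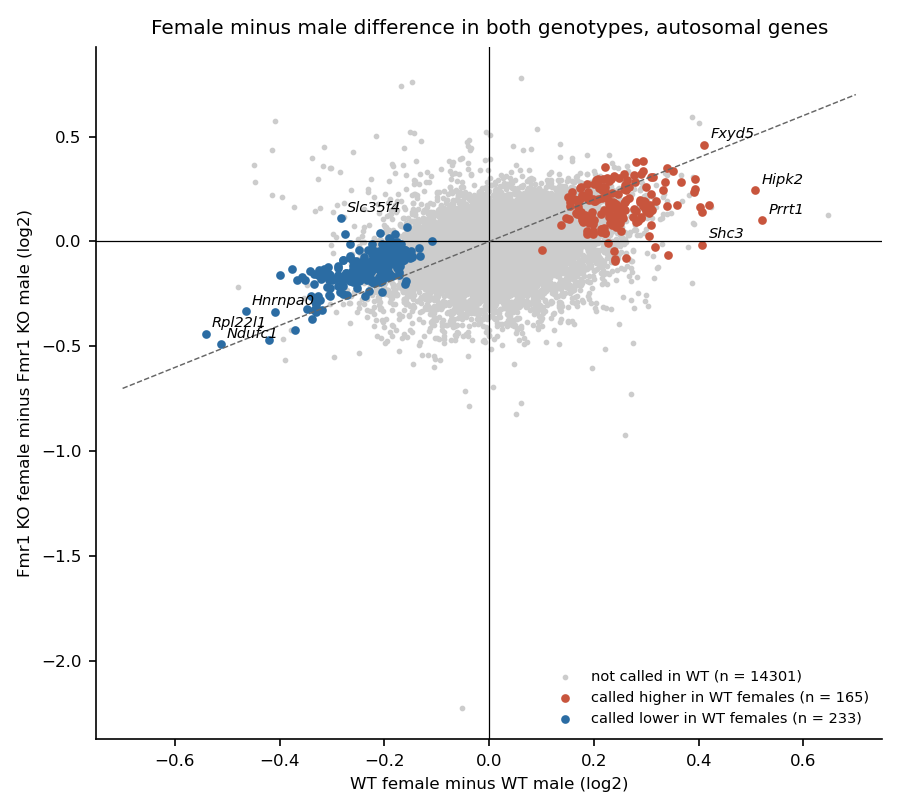
Female minus male difference (log2) of 14699 autosomal genes in WT mice (horizontal axis) and *Fmr1* KO mice (vertical axis), with the 398 genes called in WT in red (higher) and blue (lower) and a dashed line of equal differences. Of the colored points, 381 have the same sign in both genotypes and 17 do not.

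Of the 24 genes named for their differences, 23 had the same sign in the *Fmr1* KO mice, *Shc3* being the exception, and 9 passed there. *Ndufc1* was at 8.54, 8.52 and 8.48 in the *Fmr1* KO males and 8.06, 7.97, 8.07 and 7.995 in the *Fmr1* KO females, with no overlap and a difference of -0.49 (adjusted p = 0.0021), close to the WT difference of -0.51. *Hnrnpa0* gave 10.58, 10.60 and 10.54 in KO males and 10.30, 10.24, 10.17 and 10.26 in KO females (-0.33, adjusted p = 0.00412) and *Cox5a* 10.27, 10.19 and 10.28 in KO males and 9.90, 9.87, 9.97 and 9.91 in KO females (-0.34, adjusted p = 0.00678). *Paf1*, a subunit of an RNA polymerase II elongation complex, was higher in females of both genotypes, by 0.29 in WT (adjusted p = 0.0041) and 0.34 in KO (adjusted p = 0.00449). *Ubap2l*, a stress granule protein whose exons *4933434E20Rik* and *Gm19710* overlap on the opposite strand, gave 0.35 and 0.34 (adjusted p = 0.00144 and 0.00529), and *Gtf3c6*, a subunit of the RNA polymerase III factor TFIIIC, 0.22 and 0.35 (adjusted p = 0.0123 and 0.0024). *Gpatch4*, a nucleolar protein, was higher by 0.26 and 0.32, with adjusted p-values of 0.00509 and 0.00412. For the mean difference over both genotypes, 1050 autosomal genes passed (7.14%), 531 higher (3.61%) and 519 lower (3.53%), and 366 of the 398 were among them. The mean includes the WT differences on which the 398 were chosen, so the 366 do not bear separately on the KO mice.

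Of the autosomal genes, 0 passed a test of whether the sex difference itself differed between the genotypes (limma interaction, 0 at an adjusted p under 0.05 or under 0.1, lowest adjusted p 0.791, and 0 in the ordinary linear model). With p left unadjusted, 369 genes (2.51%) with a higher and 517 (3.52%) with a lower difference in the *Fmr1* KO mice were under 0.05. The smallest unadjusted p belonged to *Slc35f4*, a predicted membrane carrier. It was lower in WT females, at 7.86, 7.78, 7.89 and 7.78 in males and 7.63, 7.46, 7.53 and 7.55 in females (-0.28 ± 0.0517 SE, adjusted p = 0.011), and in the *Fmr1* KO mice it was at 7.51, 7.62 and 7.57 in males and 7.76, 7.66, 7.63 and 7.66 in females (0.11, adjusted p = 0.342), where each male was below each female. The unadjusted p of the difference was 0.000138 and the adjusted p 0.791. *Prg4*, a lubricating proteoglycan, *Plin4*, a lipid droplet protein, *Slc4a5*, a bicarbonate carrier of the choroid plexus, and *Prcp*, a peptidase, followed, with WT differences of -0.17, 0.19, 0.0287 and -0.0855 that did not pass and KO differences of 0.74, -0.27, -0.25 and 0.24. In the *Fmr1* KO mice all 13 tested genes of the choroid plexus list, *Slc4a5* among them, were below 0, 2 of them called lower, with a median of -0.214, and their score was 0.324 to 0.366 in males and -0.291 to 0.182 in females. The part of these cells in the *Slc4a5* difference was not tested. Exons of *Gm48940*, *Tpr* and *Hdgfl2* overlap *Slc35f4*, *Prg4* and *Plin4* on the opposite strand.

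The 17 genes of the 398 with the opposite sign in the *Fmr1* KO mice included *Shc3*, *Slc35f4*, *Srrt*, the transcriptional repressor *Zhx2* and the splicing regulator *Clasrp*. *Shc3* gave 9.57, 9.32 and 9.57 in KO males and 9.41, 9.51, 9.45 and 9.52 in KO females, with overlap. In 0 of the 17 did the KO comparison reach an unadjusted p under 0.05, and the unadjusted p of the difference between genotypes ran from 0.000138 to 0.0118. Among the 381 genes with the same sign in both genotypes, the KO difference was the smaller in absolute size in 327. The 398 genes had been chosen on their WT values.

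Transcript composition moved with the direction of the difference. The median GC content of the annotated transcripts was 53.8% for the genes higher in WT females, 46.3% for those lower and 51.0% for all autosomal genes, and the median transcript length was 2040, 1678 and 2218 bases. With the genes cut into 5 bins of equal size by GC, the median WT difference went from -0.0288 in the poorest bin to 0.0266 in the richest, and that of the *Fmr1* KO mice went the other way, from 0.0273 to -0.105. Of the genes called in WT, 13 higher and 105 lower genes were in the poorest bin and 39 higher and 3 lower in the richest. Per mouse, the Spearman correlation across genes between the deviation of a gene from its mean and its transcript GC was 0.44, -0.339, -0.531 and -0.042 in the WT males and 0.489, 0.025, -0.292 and 0.191 in the WT females, so that the sexes overlapped and WT male 1 and WT female 1 were the highest. With this correlation as a covariate 939 genes passed, and with the like correlation for transcript length 869, the 398 among them in both fits, which were chosen after seeing the data. The part of GC content and length in the result was not tested further. Oxidative phosphorylation transcripts had a median GC of 51.7% and were short, at 717 bases.

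Promoter sequence was available from RefSeq (GRCm38.p6, 300 bases, most of them before the start) for 142 of the genes higher in WT females, 185 of those lower and 11458 of all autosomal genes. The full palindromes of the estrogen and androgen response elements were found in 0 promoters of either group and in 0.009% of all, and their absence from such a window says nothing on binding elsewhere. The ETS motif CCGGAAG, on either strand, was in 24.6% of the promoters of higher genes and 28.1% of those of lower genes, beside 17.95% of all, and the YY1 motif AAGATGGCG in 8.45%, 3.78% and 3.04%. The NRF1 motif, known from promoters of respiratory chain genes, was in 4.22%, 5.95% and 2.10% and the E-box CACGTG in 12.0%, 15.1% and 11.2%. These shares were not tested. The promoters of 3 genes with the same direction in both genotypes are printed 5′ to 3′ in the direction of the gene, to show a lower gene with a YY1 match (*Ndufc1*, chr3:51408906-51409205, minus strand), a higher gene with an ETS match (*Gps2*, chr11:69913770-69914069, plus strand) and a higher gene with 3 E-box matches (*Ubap2l*, chr3:90052431-90052730, minus strand), with the matches in capitals.
Ndufc1: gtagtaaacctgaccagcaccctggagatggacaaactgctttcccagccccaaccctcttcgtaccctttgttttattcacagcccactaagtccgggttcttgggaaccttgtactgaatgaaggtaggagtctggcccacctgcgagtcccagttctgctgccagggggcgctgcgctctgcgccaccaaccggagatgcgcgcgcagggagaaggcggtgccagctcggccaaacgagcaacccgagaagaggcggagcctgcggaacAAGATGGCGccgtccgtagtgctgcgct
Gps2: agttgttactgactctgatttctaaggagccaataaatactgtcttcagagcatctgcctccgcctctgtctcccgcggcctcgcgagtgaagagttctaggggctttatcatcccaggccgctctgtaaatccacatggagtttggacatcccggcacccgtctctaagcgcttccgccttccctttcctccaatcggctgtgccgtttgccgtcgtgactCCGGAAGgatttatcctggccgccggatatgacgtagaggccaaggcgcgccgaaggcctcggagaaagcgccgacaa
Ubap2l: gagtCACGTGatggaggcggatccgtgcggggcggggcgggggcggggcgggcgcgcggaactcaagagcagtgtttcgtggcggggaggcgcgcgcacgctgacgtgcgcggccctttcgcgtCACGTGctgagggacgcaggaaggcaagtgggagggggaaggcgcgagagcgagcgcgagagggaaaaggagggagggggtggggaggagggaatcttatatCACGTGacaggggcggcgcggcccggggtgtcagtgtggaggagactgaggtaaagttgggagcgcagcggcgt

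The 398 genes were spread over all 19 autosomes. The share called ran from 0.84% of 595 genes on chromosome 15 to 3.61% of 913 on chromosome 1. On chromosome 17, 14 genes were higher and 4 lower, and on chromosome 3, 5 were higher and 16 lower. The differences between chromosomes were not tested. A set of 103 genes, 40 higher and 63 lower in females, passed in all 15 fits that left out 1 mouse, and 555 autosomal genes (3.78%) had sexes that did not overlap in the same direction in both genotypes.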

How the data were processed

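The authors sequenced polyadenylated RNA of the ventral striatum (stranded libraries, paired reads), aligned it with STAR to the UCSC mm10 mouse genome (GRCm38) and deposited DESeq2 rlog values, which are normalized counts on a log2 scale. Read totals were not used here, so depth and counting error are unknown. The second *Fmr1* KO male, which the authors excluded, is not analysed here. Symbols were placed on chromosomes with GENCODE M21 and RefSeq GRCm38.p6.

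The rlog values of all 15 mice were fitted with limma 3.58.1 (R 4.3.3, trend, 4 group means, 11 residual degrees of freedom), and p-values were adjusted by the Benjamini-Hochberg method over the 15261 genes with a mean of at least 3, all chromosomes included. Adjusted p-values in the report come from this 2-sided fit with a threshold of 0.05, and SE is the standard error of limma. The script was tested on simulated data. Percentages of the male level are 2 to the power of the log2 difference. Figures were drawn with matplotlib 3.10.9.

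The text names the 12 genes called in each direction with the largest differences, the pair of genes with the smallest p on each list where given, and 5 genes for the other contrasts. Others were picked after their values were seen, where the text says so or as members called of a symbol family. The members and lists were chosen with earlier results of these data known. Alternatives were another minimum, scaling, model, covariate or threshold, and each mouse left out in turn. Some genes are not reported here.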

Additional observations from a re-analysis of the deposited data

Results flagged for a closer look

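In 7 of 120 groups of 4 mice examined, 1 mouse lay apart from the other 3 by a gap above the 95% critical value of Dixon's test, which chance alone does in about 1 of 20 groups. For *Csf2ra*, WT female 3 was at 8.98 and the nearest female at 9.15. For *Fxyd5*, WT female 4 was at 8.54 and the nearest at 8.37. For *Coq10b*, WT female 2 was at 8.66 and the nearest at 8.81, and for *Atp5e*, WT female 1 was at 9.23 and the nearest at 9.07. The projection neuron score of WT female 1 was -0.247 and the nearest 0.327. The correlation across genes of the deviation of a mouse with transcript length was -0.297 in WT male 1 (nearest male 0.072) and -0.148 in WT female 1 (nearest female 0.045).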

How the results depend on the processing

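The count of 398 genes called between the WT sexes went to 1356 with sample quality weights, 30 with the WT mice only, 637 with the projection neuron score and 675 with the neighboring-region score as covariate, 108 without WT male 3 and WT female 1, and 704 at a threshold of 0.1. With alternatives chosen after seeing the data it was 939 with the GC correlation and 869 with the length correlation as covariate. Leaving out 1 mouse gave 120 (without WT female 4) to 443 (without WT male 1). It was 124 without WT female 2, 153 without WT male 2 and 179 without WT male 3.

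The 108 genes of the *Fmr1* KO comparison became 240 in an ordinary linear model, 180 after quantile normalization, 163 with sample medians centred, 1045 with weights, 3 with the KO mice only, 401 and 264 with the same scores as covariates, 395 at a threshold of 0.1, 683 with the length correlation, 412 without WT male 1 and WT female 1 (both chosen after seeing the data), and 10 (without *Fmr1* KO male 3) to 363 (without WT male 1) with 1 mouse left out. The 1050 genes of the mean difference became 2200 with weights, 1647 with the projection neuron score, 1672 at a threshold of 0.1, 1764 with the GC and 1754 with the length correlation, and 636 to 1059 with 1 mouse left out. The share of WT calls with the same sign in the KO mice, 95.7%, was 93.1% in the ordinary linear model, 85% with weights, 100% with the WT mice only, 92.2% at a threshold of 0.1, 92.8% with the length correlation, and 93.2% to 99.2% with 1 mouse left out. The interaction stayed at 0 genes in every alternative run. The causes were not tested.

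No label says that a replicate number marks a shared litter, batch or day. Deviations of same-numbered mice correlated by 0.0806 to 0.415 in WT and -0.289 to 0.361 in *Fmr1* KO mice. With the replicate block, 552 genes were called in WT (381 of the 398 among them), 197 in *Fmr1* KO and 1352 for the mean. The 24 genes with the largest differences kept their direction under every alternative run. Medians of lists near 0 did not: without WT male 3 that of microglia went from 0.0181 to -0.0925, and without WT male 1 those of complexes III and IV went from -0.0662 and -0.0341 to 0.0105 and 0.0338. Differences of weakly expressed genes are drawn toward 0 by the rlog scale, and read depth, litter and handling by sex are unknown.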
